A study of Mus musculus with 12 samples.

Results

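Expression of 6 genes of the Nodal pathway was followed across mouse embryonic stem cells in which the transcription factor Foxd3 was deleted or overexpressed. The 6 genes are the ligand Nodal, the co-receptor gene Tdgf1, the receptor gene Acvr2b, the secreted antagonists Lefty1 and Lefty2, and the intracellular inhibitor Skil. They were taken by gene symbol, and each of the 6 had 1 row in each of the 3 deposited tables. Those tables held 19996 genes in SL, 19718 in 2i and 19996 in the overexpression comparison. All 6 passed the expression filter of the tests in each comparison.

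The 12 libraries of polyadenylated RNA fell into 6 groups of 2. Foxd3fl/fl;Cre-ER cells carry floxed Foxd3 alleles and a recombinase that 4-hydroxytamoxifen activates, so the untreated controls carry the floxed alleles and the recombinase too. They were either given 4-hydroxytamoxifen (2 µM, 3 days; genotype Foxd3-/-, here deleted) or left untreated (genotype Foxd3fl/fl, here floxed). Both states were grown in SL, a medium of 15% fetal bovine serum with leukemia inhibitory factor on irradiated embryonic fibroblast feeders. Both were also grown in 2i, a serum-free N2B27 medium with leukemia inhibitory factor, the MEK inhibitor PD0325901 (0.4 µM) and the GSK3 inhibitor CHIR99021 (3 µM). In the third comparison, tetON Foxd3 cells, which overexpress Foxd3 when given doxycycline, were set against wild-type LF2 cells (WT) given doxycycline. Both were grown without feeders in 15% serum with leukemia inhibitory factor, and the tetON Foxd3 protocol states doxycycline at 1 µg/µl for 3 days. No group received tamoxifen without the floxed allele, and no tetON Foxd3 group without doxycycline was analysed here. The sources used here do not give the promoter of the recombinase or the clonal origin of the lines. The labels do not say whether 2 replicates came from separate cultures, so p-values measure only the spread between these libraries, which may be technical.

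Nodal is a secreted ligand of the transforming growth factor beta family. It binds activin receptors together with an EGF-CFC co-receptor, of which Tdgf1 (Cripto) is one, and the signal is carried by Smad2 and Smad3 with Smad4 into the nucleus, where Foxh1 is a DNA-binding partner. The pathway switches on its own ligand and its own antagonists, Lefty1 and Lefty2, which makes the Lefty genes widely used readouts of its activity. Skil (SnoN) binds Smad proteins and represses their targets. In the mouse embryo the pathway maintains the epiblast and patterns it into mesoderm and endoderm.

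Lefty1 and Lefty2 are neighbours on chromosome 1 and similar enough in sequence to matter for read counting. In GRCm38, Lefty2 spans chr1:180893108-180899103 and Lefty1 spans chr1:180935022-180938400, both protein-coding genes on the plus strand with 35918 bases between them. Their coding sequences are 1107 bases each and 91.9% identical. Their longest identical run is 140 bases. Of all 50-base windows of the Lefty1 coding sequence, 26.56% occur unchanged in Lefty2, and 7.24% of its 100-base windows do. The sources used here do not say how reads that match both genes were counted, so some may be shared between the 2 genes. Tdgf1 (chr9:110939603-110946158, minus strand) likewise has a processed pseudogene, Tdgf1-ps1 on chromosome 16, that is 98.8% identical over 512 aligned coding bases. The deposited tables list no row for it.

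The other members lie apart in GRCm38: Nodal at chr10:61417972-61425338, Skil at chr3:31095058-31122577 and Acvr2b at chr9:119402118-119434995, all protein-coding and on the plus strand. Promoter windows of RefSeq (GRCm38.p6) were matched for 3 of the 6, namely Nodal, Tdgf1 and Acvr2b. The windows run from 250 bases before the start to 50 after it. The 250 bases before the start are shown for the ligand and its co-receptor. A forkhead motif was searched because Foxd3 is a forkhead factor, and binding of Foxd3 was not tested. Capitals mark a match to the forkhead core TGTTTA on either strand, with Nodal at chr10:61417722-61417971 on the plus strand and Tdgf1 at chr9:110946159-110946408 on the minus strand:
Nodal: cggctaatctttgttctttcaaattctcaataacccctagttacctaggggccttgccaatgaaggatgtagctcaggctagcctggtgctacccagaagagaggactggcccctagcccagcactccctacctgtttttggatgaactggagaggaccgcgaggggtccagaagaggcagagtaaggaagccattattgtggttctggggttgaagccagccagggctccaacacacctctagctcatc
Tdgf1: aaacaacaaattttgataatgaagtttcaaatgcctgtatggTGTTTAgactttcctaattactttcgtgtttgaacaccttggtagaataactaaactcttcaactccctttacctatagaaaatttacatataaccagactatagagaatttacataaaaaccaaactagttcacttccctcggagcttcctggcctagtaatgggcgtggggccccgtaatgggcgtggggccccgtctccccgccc
The Tdgf1 window held 1 such match, starting 208 bases before the start, and the Nodal and Acvr2b windows held 0. The core occurs in 13.4% of the 32851 promoter windows. The longer form TGTTTAC (3.65% of windows, contained in the core's matches), the FOXH1 motif AATNCACA (3.6%) and the SMAD palindrome GTCTAGAC (0.213%), each read on both strands, had 0 matches in the 3 windows.

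Foxd3 itself was read first as a check of the labels. It measured 1.62 and 1.83 FPKM (fragments scaled to transcript length and library size) in SL deleted against 4.53 and 4.81 FPKM in SL floxed. It measured 53.2 and 50.1 FPKM in tetON Foxd3 against 10.6 and 14.1 FPKM in WT. In 2i it measured 2.07 and 2.45 FPKM in the libraries labelled deleted and 2.51 and 2.42 FPKM in floxed, so these groups overlapped. The authors' deposited table lists Foxd3 higher in the 2i libraries labelled deleted, at 376 against 221 scaled mean reads (fold 1.7, p adjusted here 9.43e-06). Both values go against the label, and these libraries are called "labelled deleted" throughout. Pluripotent cell markers were abundant in every library (8 genes, summed 1856 to 3363 FPKM). Fibroblast markers (13 genes) summed to 340 and 370 FPKM in SL deleted, 204 and 247 FPKM in SL floxed, 10.5 to 19.0 FPKM in 2i and 6.08 to 9.63 FPKM in the doxycycline groups. Of these 13, 0 were listed at 0 in SL, 1 or 2 in each 2i library and 2 to 4 in each doxycycline library. Depth per library is not known, and the authors' scaled mean reads summed to 24278898 to 54096080 per group.

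Nodal lay between 23.1 and 35.6 FPKM in all 8 serum libraries and was lowest in untreated cells in 2i. Its FPKM was 27.4 and 29.6 in SL floxed, 23.1 and 24.9 in SL deleted, 30.3 and 34.2 in WT and 29.5 and 35.6 in tetON Foxd3. In 2i it was 3.26 and 2.41 in floxed and 9.85 and 12.99 in labelled deleted libraries. The mean of SL floxed was 10.04 times that of 2i floxed. From lowest to highest the order of means was 2i floxed, 2i labelled deleted, SL deleted, SL floxed, WT and tetON Foxd3, and of the neighbours in this order only WT and tetON Foxd3 overlapped.

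Tdgf1, the co-receptor gene, had the highest FPKM of the 6 members in every library. It measured 323 and 410 FPKM in SL floxed, 267 and 345 FPKM in SL deleted, 533 and 364 FPKM in WT and 768 and 327 FPKM in tetON Foxd3. In 2i it measured 133 and 124 FPKM in floxed and 157 and 181 FPKM in labelled deleted libraries. All 4 libraries in 2i lay below all 8 in serum, while the serum groups overlapped their neighbours in the order of means. Its ratio to Nodal was 40.6 and 51.6 in 2i floxed and 9.16 to 26.1 in the other 10 libraries.

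Acvr2b, which encodes a type II activin receptor, was low and nearly level. It measured 5.11 and 6.78 FPKM in SL floxed, 5.26 and 5.59 FPKM in SL deleted, 7.22 and 6.38 FPKM in 2i floxed and 6.65 and 6.95 FPKM in 2i labelled deleted. WT had 7.10 and 5.38 FPKM and tetON Foxd3 had 9.33 and 6.48 FPKM. Every pair of neighbouring groups in the order of means overlapped, and the highest mean was 1.46 times the lowest.

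Both antagonist genes were low in 2i, and of the 6 members Lefty1 had the largest ratio between SL and 2i. Lefty1 measured 82.3 and 179 FPKM in SL floxed, 52.1 and 108 FPKM in SL deleted, 17.9 and 48.6 FPKM in WT and 76.8 and 145 FPKM in tetON Foxd3. In 2i it measured 5.25 and 4.06 FPKM in floxed and 2.91 and 4.88 FPKM in labelled deleted libraries. Lefty2 measured 47.4 and 46.3 FPKM in SL floxed, 37.1 and 41.3 FPKM in SL deleted, 15.8 and 36.2 FPKM in WT and 43.7 and 59.2 FPKM in tetON Foxd3. In 2i it measured 7.85 and 9.01 FPKM in floxed and 7.11 and 8.87 FPKM in labelled deleted libraries. The SL floxed mean exceeded the 2i floxed mean 28.0 times for Lefty1 and 5.56 times for Lefty2, and for both genes the 2i groups overlapped each other and lay below all serum libraries. WT was the lowest serum group for both.

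The balance between the antagonists differed with the medium. Lefty1 exceeded Lefty2 in all 8 serum libraries, with ratios of FPKM from 1.13 to 3.86, and lay below it in all 4 libraries in 2i, with ratios from 0.410 to 0.669. Their summed FPKM divided by that of Nodal was 4.02 and 5.43 in 2i floxed and 1.02 and 1.06 in 2i labelled deleted. It was 1.11 and 2.48 in WT, 4.09 and 5.72 in tetON Foxd3, and 3.86 to 7.62 in SL. Because reads may be shared between the Lefty genes where their coding sequences are identical, the ratio between them carries that uncertainty in every library.

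Skil followed another order. It measured 33.2 and 53.1 FPKM in SL floxed and 28.2 and 46.98 FPKM in SL deleted, above all libraries of the other groups. It measured 24.0 and 23.8 FPKM in tetON Foxd3, 14.95 and 14.1 FPKM in WT, 14.1 and 15.2 FPKM in 2i labelled deleted and 12.7 and 11.1 FPKM in 2i floxed. WT overlapped 2i labelled deleted and lay above 2i floxed.

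**Figure D1:**
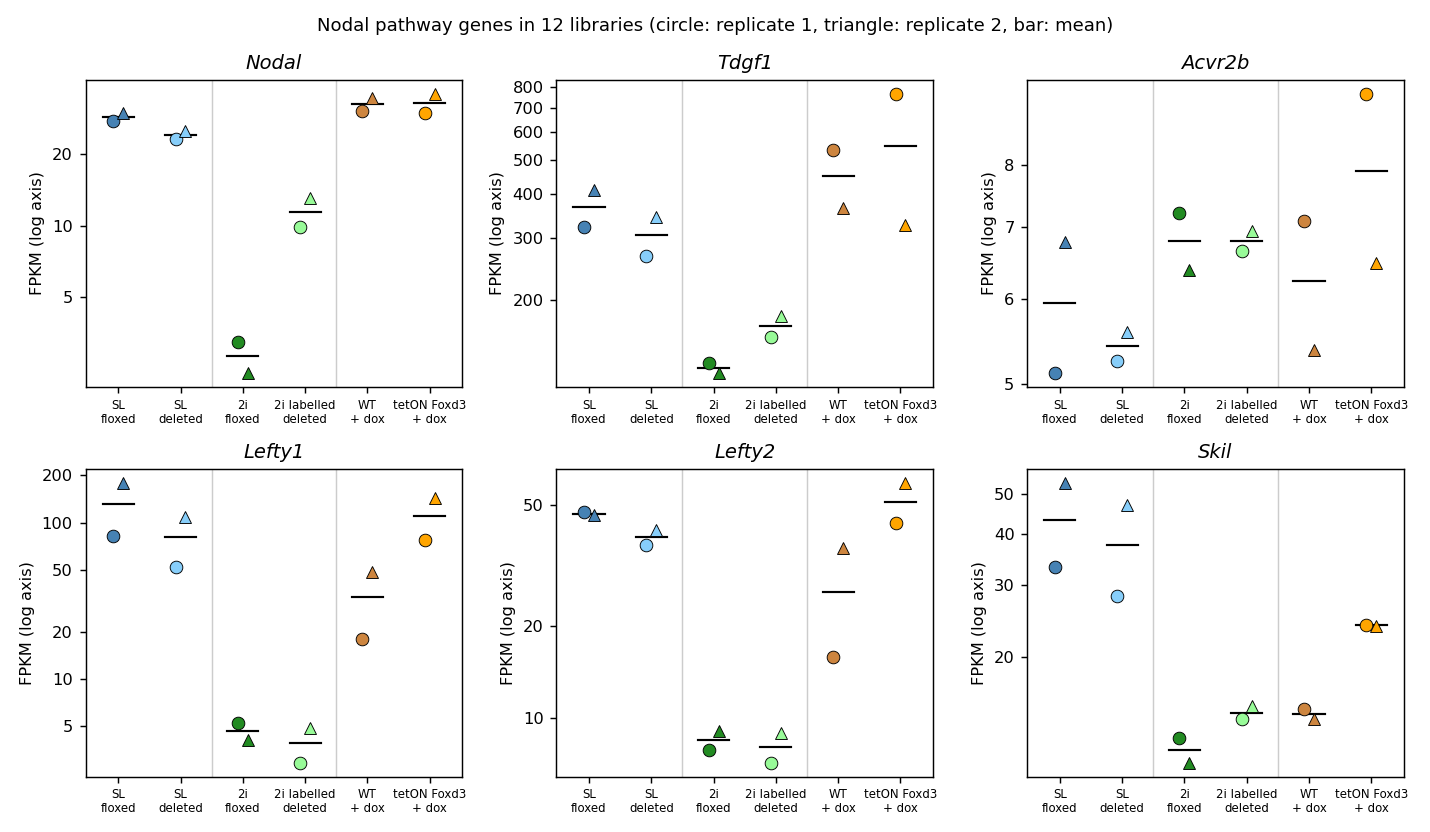
FPKM (log axis) of the 6 members in each of 12 libraries, by group; circles are replicate 1, triangles replicate 2 and bars the mean of 2. Nodal, Tdgf1, Lefty1 and Lefty2 were lowest in both 2i groups, Skil was highest in both SL groups, and Acvr2b stayed between 5.11 and 9.33 FPKM.

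The 3 tables may have been normalized separately, so these levels across tables are a description with no test. Medium, feeders and serum differ together between SL and 2i, and the doxycycline groups come from other lines. After scaling all 12 libraries by the median of ratios, the same 4 members were again lowest in both 2i groups. In these bulk samples, fewer cells of a type and less RNA per cell cannot be told apart.

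The spread between the 2 libraries of a group was itself unusual for Lefty1. Its libraries differed by 1.04 in SL deleted, 1.11 in SL floxed, 1.39 in WT and 0.90 in tetON Foxd3 on the log2(FPKM + 1) scale. Replicate 2 was the higher library in each of these groups. Between 0.274% and 1.85% of genes tested had a larger gap in those groups, where the median gap over all genes was 0.14 to 0.18. Tdgf1 in tetON Foxd3 (1.23, replicate 1 higher) and Lefty2 in WT (1.14, replicate 2 higher) also had large gaps. Fewer than 1 in 100 genes exceeded them (0.718% and 0.635%). Skil in SL differed by 0.72 in deleted and 0.66 in floxed libraries, with replicate 2 higher in both, while Nodal differed by 0.10 to 0.27 in the serum groups.

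The SL comparison asked whether loss of Foxd3 in serum changes the pathway. All 6 members had lower means in the deleted libraries, and 0 of 6 passed limma's test at an adjusted p under 0.05. With the replicate number as a block in the fit, Lefty1, Tdgf1 and Lefty2 passed (adjusted p = 3.49e-13, 0.00502 and 0.0429). Nodal, Skil and Acvr2b did not. Over all 12024 genes the block fit called 1171 higher and 826 lower, against 1 and 0 without the block. The labels state no pairing, so the values below are from the fit without a block. Nodal had a log2 difference of -0.24 (95% interval -0.51 to 0.04, adjusted p = 0.644) and Lefty2 of -0.25 (-0.52 to 0.01, adjusted p = 0.565). These were the only members whose groups did not overlap. Lefty1 had the largest difference, -0.68, with an interval from -1.73 to 0.36 (adjusted p = 0.764).

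Tdgf1 differed by -0.26 (-0.65 to 0.13), Skil by -0.20 (-0.90 to 0.50) and Acvr2b by -0.10 (-0.50 to 0.30), with adjusted p-values of 0.752, 0.943 and 0.946. Of all 12024 genes tested, 0.00832% passed, 51.6% had a difference below 0 and 17.3% had lower deleted libraries with no overlap. At an unadjusted p under 0.05 the members counted 0 of 6, against 9.12% of all genes. The authors' deposited p-values, adjusted here, also called 0 of 6, against 0.535% of the table. Leaving out 1 library gave Lefty1 differences from -1.24 to -0.13. Without SL deleted replicate 1 or SL floxed replicate 2 the difference of Skil was above 0, at 0.16 and 0.13.

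Of the 36 pathway genes tested in SL, 0 passed limma's test, 2 had an unadjusted p under 0.05 and 0 of 42 passed by the authors' p-values. Their median log2 difference was -0.02, against -0.01 over all genes. The 2 were Gdf1, a ligand that acts with Nodal, and Tgif2, a Smad corepressor. Gdf1 measured 1.43 and 2.10 FPKM in deleted against 2.97 and 3.39 FPKM in floxed libraries (adjusted p = 0.368). Its transcript is shared with Cers1, and the authors' table lists it at 0 mean reads in every group, so its FPKM is uncertain. Tgif2 measured 28.3 and 24.3 FPKM against 19.3 and 21.1 FPKM (adjusted p = 0.469).

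Fibroblast markers moved with the SL comparison: all 11 tested had higher deleted means, where 51.6% of all genes had a difference below 0. Of the 11, 9 had an unadjusted p under 0.05, against 9.12% of all genes, and 0 an adjusted one. The authors' p-values, adjusted here, called 4 of 13 higher, against 0.535% of all genes listed in either direction. The median log2 difference of the 11 was 0.61. Of the 8 pluripotent cell markers, 5 had higher and 3 lower deleted means (median 0.14) and 0 passed. The 2 with an unadjusted p under 0.05 were Nanog (0.31, adjusted p = 0.493) and Fgf4 (-0.53, adjusted p = 0.257). The part of feeder RNA in the member differences was not tested.

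In 2i, Nodal was the member that changed most. It rose from a mean of 2.84 ± 0.605 FPKM in floxed to 11.4 ± 2.22 FPKM in labelled deleted libraries (SD, n = 2 each), a ratio of 4.03. The log2 difference was 1.69 (95% interval 1.35 to 2.03, limma adjusted p = 3.77e-05), and 0.516% of genes tested had a larger one. Tdgf1 rose by 0.39 (0.23 to 0.55, adjusted p = 0.00136) and Skil by 0.28 (0.07 to 0.49, adjusted p = 0.0224).

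The antagonists and the receptor did not pass. Lefty1 differed by -0.23 (-0.66 to 0.19, adjusted p = 0.295), Lefty2 by -0.07 (-0.34 to 0.20, adjusted p = 0.597) and Acvr2b by 0.00 (-0.22 to 0.22, adjusted p = 0.987). The Lefty2 interval excludes a rise of the size of Nodal's on this scale, as does the Lefty1 interval. Leaving out 1 library gave Lefty1 differences from -0.52 to 0.06.

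Calls were common in this comparison, so the 3 of 6 members read against a high background. Of 11637 genes, 47.9% were higher and 19.7% lower, and the median difference of all genes was 0.19. After median-of-ratios scaling, which moved that median to -0.02, 30.3% were higher and 33.8% lower, and 1 of 6 members passed. That member was Nodal, at 1.50 (adjusted p = 0.000146). Tdgf1 was then at 0.17 (adjusted p = 0.0611), Skil at 0.07 (adjusted p = 0.473) and Acvr2b at -0.19. Lefty1 was at -0.41 (adjusted p = 0.0873) and Lefty2 at -0.27 (adjusted p = 0.071).

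The authors' deposited table gave Nodal a fold of 3.4 with a p-value listed as 0. It gave Tdgf1 a fold of 1.13 (adjusted p = 0.00696), Skil 1.01 and Acvr2b -1.27, where a negative fold means lower (adjusted p = 0.0271). Lefty1 had a fold of -1.43 (adjusted p = 0.0524) and Lefty2 of -1.18 (adjusted p = 0.182). Skil also missed the threshold without 2i labelled deleted replicate 2 (adjusted p = 0.128) and without 2i floxed replicate 2 (adjusted p = 0.103). Nodal passed in all 12 alternatives, with differences from 1.50 to 1.97.

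**Figure D2:**
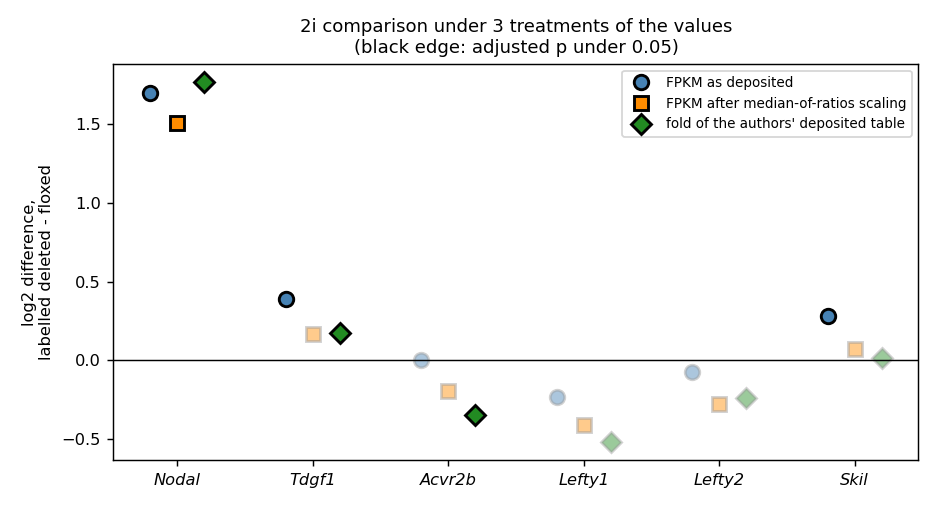
Log2 difference in 2i (labelled deleted minus floxed) of the 6 members from the FPKM as deposited, from FPKM after median-of-ratios scaling, and from the fold of the authors' deposited table; a black edge marks an adjusted p under 0.05. Nodal lay between 1.50 and 1.77 in all 3, Tdgf1 went from 0.39 to 0.17 and 0.18, and Acvr2b from 0.00 to -0.19 and -0.34.

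Most other pathway genes were also higher in the 2i libraries labelled deleted. Of 32 pathway genes tested, members included, 21 rose and 1 fell, with a median difference of 0.35 against 0.19 over all genes. After scaling, 13 of 31 rose and 2 fell, against the 30.3% and 33.8% of all genes, and by the authors' p-values 15 of 42 rose and 3 fell, against 20.6% and 20.2%. The gene that fell with the FPKM as deposited was Foxh1, from 37.2 and 41.0 FPKM to 30.5 and 30.5 FPKM (adjusted p = 0.00171).

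Intracellular inhibitors held 9 of these rises among 10 tested, with a median of 0.41. Over all genes 47.9% rose. After scaling 4 of the 10 rose, near the 30.3% of all genes, and by the authors' p-values 5 of 10 did, against 20.6%. Tgif1, a Smad corepressor, rose from 55.2 and 40.4 FPKM to 95.7 and 98.9 FPKM (log2 difference 1.03, adjusted p = 0.000135). Smad7, which blocks receptor signalling, rose from 5.13 and 5.27 FPKM to 9.81 and 11.1 FPKM (0.88, adjusted p = 0.000102). Ppm1a, a phosphatase of Smad2 and Smad3, rose by 0.62 and Ski, the relative of Skil, by 0.52. These 4 genes passed in all 12 alternatives.

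Both proprotein convertases, which cleave the Nodal precursor, rose in 2i, where 47.9% of all genes did. Pcsk6 went from 10.08 and 8.72 FPKM to 21.7 and 20.5 FPKM (log2 difference 1.09, adjusted p = 2.77e-05), and Furin from 4.51 and 4.998 FPKM to 7.55 and 7.64 FPKM (0.58, adjusted p = 0.000805). Of the 3 receptors tested, Acvr1b, the type I receptor, rose by 0.71 and Acvr2a by 0.49, and Acvr2b did not pass (0.00). Gdf3, a Nodal-related ligand, rose by 0.50, and Rnf111, a ubiquitin ligase that targets Skil for degradation, by 0.47. The 6 genes named here as rising also passed in all 12 alternatives.

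Of the mesendoderm targets, 3 of 7 were tested and T (Brachyury) passed, at 0.454 and 0.462 FPKM in floxed and 1.90 and 1.87 FPKM in labelled deleted libraries (adjusted p = 6.3e-05). T reached the filter of 1 FPKM only in the group where it was high. It passed in 11 of 12 alternatives, with no filter among them (adjusted p = 0.00157), and missed in 1 fit of all 12 libraries (0.137). Of the 8 pluripotent cell markers, 4 rose in 2i, near the 47.9% of all genes that did. They were Nanog, Zfp42, Sox2 and Fgf4, by 0.95, 1.14, 0.76 and 0.47. Esrrb, Dppa5a and Utf1 (0.13, 0.13 and 0.28) and Pou5f1 (-0.09) did not pass. After scaling 3 of the 8 were called higher and 1 lower, against 30.3% and 33.8% of all genes. By the authors' p-values 3 were higher and 2 lower, against 20.6% and 20.2%. The fibroblast marker sum was 19.0 FPKM in each labelled deleted library against 10.5 and 11.1 FPKM. Of the 4 fibroblast markers tested there, Col1a1, Col1a2 and Thbs1 rose and Thy1 fell, from 2.84 to 0.256 FPKM on average. Of the 8 endoderm markers in the table, only Gata4 and Gata6 were tested, and both reached the filter only in the labelled deleted group (1.54 against 0.491 FPKM and 1.07 against 0.338 FPKM on average). Amn, which was not tested, measured 0.153 against 0.645 FPKM. The part of other cell types in the 2i differences was not tested.

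**Figure D3:**
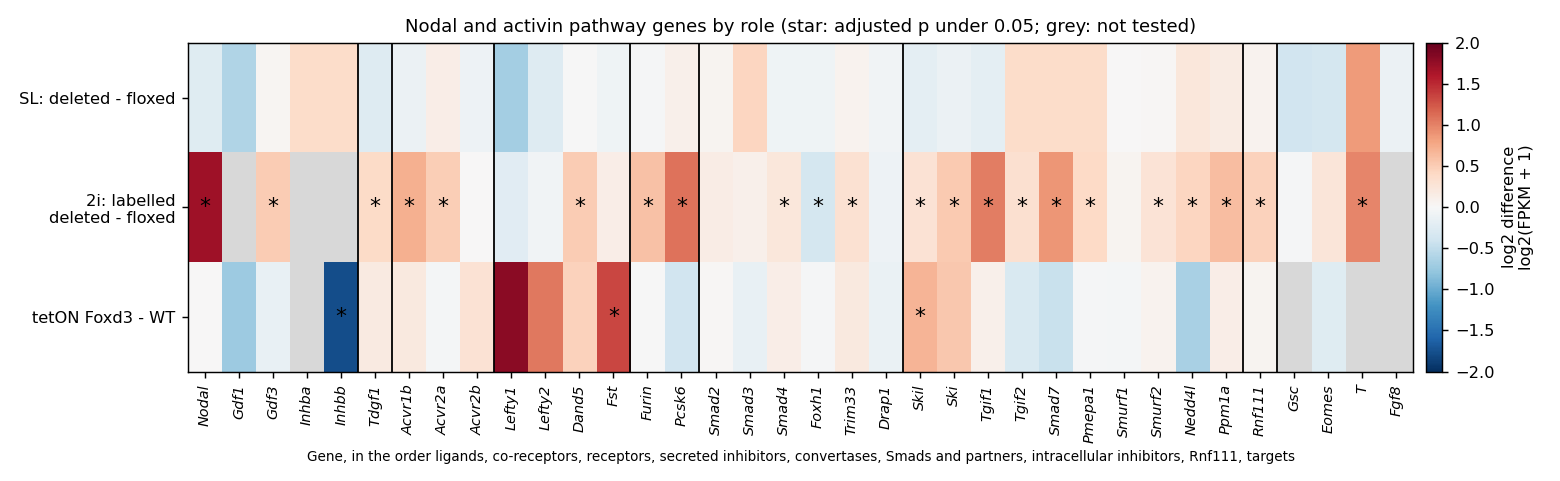
Log2 differences on the log2(FPKM + 1) scale (colour, limited to ±2) of 36 pathway genes in the 3 comparisons, ordered by role; a star marks an adjusted p under 0.05 and grey a gene under the filter of 1 FPKM. Stars number 0 in SL, 22 in 2i and 3 in overexpression.

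With Foxd3 overexpressed, Nodal did not pass, Skil rose, and both Lefty genes were higher in each tetON Foxd3 library than in WT without passing. Nodal measured 32.6 ± 4.36 FPKM in tetON Foxd3 and 32.3 ± 2.77 FPKM in WT (SD, n = 2 each), a log2 difference of 0.01 with an interval from -0.32 to 0.34 (adjusted p = 0.976). Skil rose from 14.5 ± 0.573 to 23.9 ± 0.159 FPKM (SD, n = 2 each; log2 difference 0.68, 95% interval 0.42 to 0.94, adjusted p = 0.0453). It was the 1 member of 6 to pass, where 0.994% of 11972 genes were called higher and 2.64% in either direction.

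Lefty1 had a larger difference than Skil and did not pass. Both tetON Foxd3 libraries lay above both WT libraries for Lefty1 (log2 difference 1.80, 0.53 to 3.06, adjusted p = 0.129) and for Lefty2 (1.05, 0.11 to 2.00, adjusted p = 0.202). Groups lay apart in this way, higher, for 29.5% of all genes. Only 0.0835% of genes had a larger difference than Lefty1. The authors' deposited table gave Lefty1 a fold of 3.31 (p = 0.0265, adjusted here 0.281) and Lefty2 a fold of 1.91 (adjusted p = 0.47).

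Tdgf1 (0.18, -0.85 to 1.21) and Acvr2b (0.29, -0.25 to 0.83) had overlapping groups (adjusted p = 0.835 and 0.51). Without tetON Foxd3 replicate 1 the Tdgf1 difference was -0.43, and without WT replicate 2 it was -0.09. Leaving out 1 library gave Lefty2 differences from 0.48 to 1.62. In 1 fit of all 12 libraries both Lefty1 (adjusted p = 0.0451) and Lefty2 (0.0373) passed. Both also passed with the replicate number as a block in the fit, though the labels state no pairing. These 2 fits called far more genes of any kind. The fit of 12 libraries called 806 higher and 921 lower, and the block fit 1229 and 1244. The fit of 4 libraries without a block called 119 and 197.

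The call of Skil was close to the threshold. It was lost without any 1 of the 4 libraries (adjusted p = 0.0986 to 0.147), with the difference itself between 0.64 and 0.72. It was also lost with no filter on low values (0.0804), in 1 fit of all 12 libraries (0.0832) and without the mean-variance trend (0.0536). It passed by the authors' deposited p-values, adjusted here (fold 1.62, adjusted p = 0.00381).

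**Figure D4:**
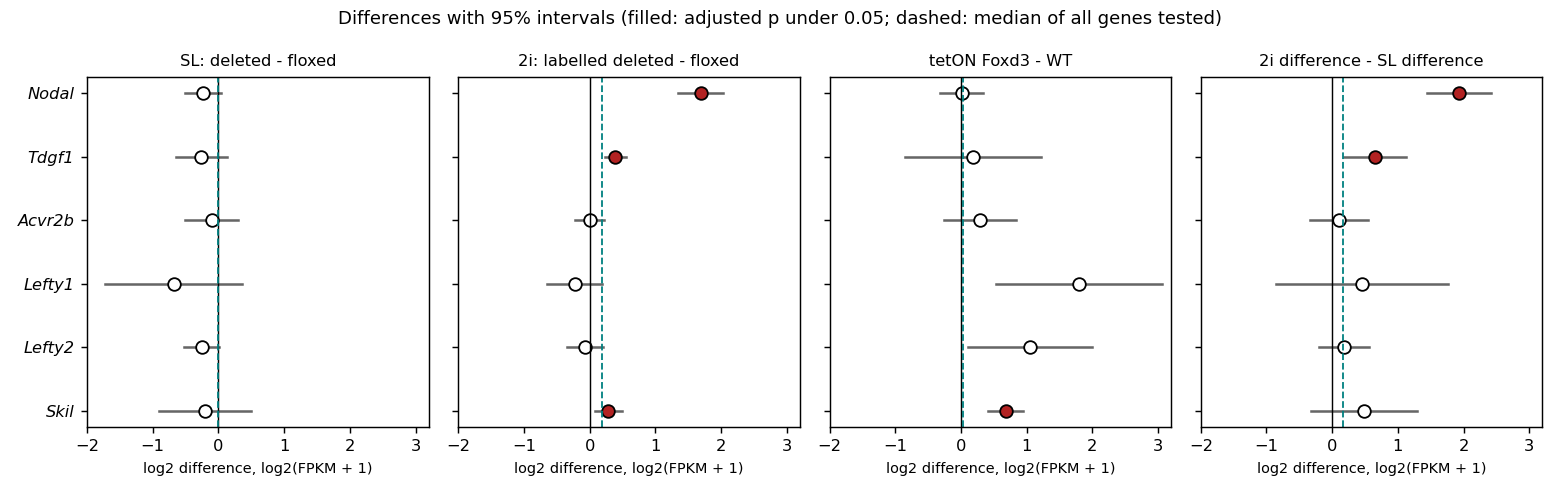
Log2 differences of the 6 members on the log2(FPKM + 1) scale with 95% intervals (lines) in the 3 comparisons and for the difference between media; filled points have an adjusted p under 0.05 and dashed lines mark the median of all genes. Nodal stands at 1.69 in 2i and 0.01 with overexpression, and the widest intervals belong to Lefty1.

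Of 32 pathway genes tested with overexpression, 2 rose and 1 fell (0.994% and 1.65% of all genes did), with a median of 0.01 against 0.03 over all genes. Besides Skil, the higher call was Fst (follistatin), a secreted activin-binding protein, at 0.381 and 0.501 FPKM in WT and 2.73 and 2.56 FPKM in tetON Foxd3 (log2 difference 1.34, adjusted p = 0.0282). Fst reached the filter of 1 FPKM only in the group where it was high. Inhbb, the activin B subunit gene, fell from 28.4 and 30.2 FPKM to 9.26 and 6.72 FPKM (-1.77, adjusted p = 0.0181). The 4 secreted inhibitors tested, Lefty1, Lefty2, Fst and the Nodal antagonist Dand5, all lay above WT with no overlap, as did 29.5% of all genes, and 1 of the 4 passed. Dand5, like Fst, had a WT mean under the filter (0.972 FPKM).

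These calls too rested on few libraries. Inhbb missed the threshold without WT replicate 1 or WT replicate 2 (adjusted p = 0.0554 and 0.0563). Fst missed it without tetON Foxd3 replicate 1 (0.0599), WT replicate 1 (0.111) or WT replicate 2 (0.0626). With no filter on low values, neither passed (0.0622 for Inhbb and 0.0558 for Fst). By the authors' p-values both are listed at 0, with folds of -3.72 for Inhbb and 6.5 for Fst.

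Ski and Nedd4l did not pass in overexpression. Ski measured 17.1 and 21.9 FPKM in WT and 27.7 and 29.7 FPKM in tetON Foxd3 (adjusted p = 0.117). Nedd4l, a ubiquitin ligase of Smad signalling, measured 6.23 and 5.55 FPKM in WT and 3.15 and 3.60 FPKM in tetON Foxd3 (adjusted p = 0.0892). Of the 8 pluripotent cell markers, 3 had higher and 5 lower tetON Foxd3 means. Sox2 (0.19) and Esrrb (0.35) lay above WT with no overlap, as did 29.5% of all genes, and did not pass. Of all genes 1.65% were called lower. Dppa5a and Nanog fell, from 1318 to 512 FPKM (adjusted p = 0.0177) and from 353 to 252 FPKM (adjusted p = 0.0497) on average. Their part in these differences was not tested.

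Whether the tamoxifen response differed between media was tested directly, as the 2i difference minus the SL difference over the same 8 libraries. For Nodal this was 1.93 (95% interval 1.44 to 2.42, adjusted p = 0.00287), from -0.24 in SL and 1.69 in 2i. Tdgf1 gave 0.65 (0.19 to 1.12, adjusted p = 0.0493). These were 2 of 6 members, where 18.4% of 12497 genes were higher in 2i by this test and 23.9% differed in either direction.

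Lefty1 (0.45, -0.86 to 1.77), Lefty2 (0.18, -0.20 to 0.57), Skil (0.48, -0.33 to 1.30) and Acvr2b (0.10, -0.34 to 0.55) did not pass. Nodal passed in all 15 alternatives, from 1.75 to 2.22. Tdgf1 passed in 5 of 15, with its call lost without SL deleted replicate 1 (adjusted p = 0.128), without SL floxed replicate 2 (0.0885) or without any 1 of the 4 libraries in 2i (0.0803 to 0.176), and after median-of-ratios scaling it was at 0.44 (adjusted p = 0.135). Foxd3 itself differed between media as well (0.97, adjusted p = 0.0075).

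Of 36 pathway genes, 6 were higher by this test and 0 lower, against 18.4% and 5.55% of all genes. Besides Nodal and Tdgf1 they were Tgif1 (1.22), Pcsk6 (0.99), Ski (0.64) and Furin (0.60). Tgif1 and Pcsk6 passed in all 15 alternatives, Ski in 8 and Furin in 6. A factor common to a whole table cancels in this test, while a factor between the groups of 1 table does not.

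Members resembled each other to different degrees over the 12 libraries. Pearson's r of log2(FPKM + 1) was 0.98 between Lefty1 and Lefty2, 0.85 between Nodal and Tdgf1, and -0.26 to 0.22 between Acvr2b and the other 5 members. Libraries of a group share a condition and the 4 libraries in 2i stand apart from serum for 4 members, so these values describe that layout and carry no test. Outside the pathway and marker lists, 10121 genes could be compared. The most alike were ND4 and Ankrd49 for Nodal (r = 0.995 and 0.993), Ramp3 and Stard7 for Lefty1 (both 0.98), Slc35b4 and Dbn1 for Lefty2 (both 0.98), Tpx2 and Egln1 for Tdgf1 (0.98 and 0.96) and Chsy1 and Setd7 for Skil (0.98 and 0.97). The third were Ube2w for Nodal (0.99), Slc35b4 for Lefty1 (0.98), Nckap5l for Lefty2 (0.97), Prx for Tdgf1 (0.96) and Foxi3 for Skil (0.97). Entpd5 and E2f1 were among the 3 most like Acvr2b (both 0.90).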

How the data were processed

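The 12 libraries were grouped by their labels. Per the file headers, the authors deposited 1 table per comparison with FPKM per library, a scaled mean read signal per group, a signed fold change (ratio of groups) and a p-value rounded to 6 decimals. The medium of a deletion table was taken from the table's name. Per the submitters' processing notes, FastQC, TopHat2, SAMtools, Cufflinks and DESeq2 were used with builds GRCm38 and mm10, with no versions stated.

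FPKM is not a count, so limma-trend (limma 3.58.1, R 4.3.3; tested on simulated data) was fitted on log2(FPKM + 1) to the 4 libraries of a comparison, keeping genes whose mean reached 1 FPKM in either group, with 2 residual degrees of freedom. The difference between media used 8 libraries. P-values were adjusted by Benjamini and Hochberg over all genes (threshold 0.05), the deposited ones likewise over each table. Log2 differences on this scale understate changes of low genes. Alternatives were pseudocounts of 0.1 and 0.5, no filter, median-of-ratios scaling, 1 fit of all 12 libraries, a replicate block, no mean-variance trend and leaving out each library.

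Members, lists (9 pathway lists of 43 genes, 3 marker lists) and tests were chosen with earlier results of these data known. Named genes were the members, pathway genes that passed in SL, overexpression or between media, up to 4 others per list and comparison by adjusted p, up to 4 markers per list, and the 3 most alike genes per member. Some genes and sequences under these rules are not reported here and were left out of the pathway counts. Positions and coding sequences came from GENCODE M21 and promoters from RefSeq (GRCm38.p6).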

Additional observations from a re-analysis of the deposited data

Results flagged for a closer look

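The difference between deleted (in 2i, labelled deleted) and floxed libraries was itself different in 2i and in SL for 6 of 36 pathway genes tested. The calls came from limma's interaction test (2i difference minus SL difference, adjusted p under 0.05). Of all 12497 genes, 18.4% were higher by this test and 23.9% differed in either direction. The values on the log2(FPKM + 1) scale were 1.93 for Nodal, 1.22 for Tgif1, 0.99 for Pcsk6, 0.65 for Tdgf1, 0.64 for Ski and 0.60 for Furin. The median over all genes tested was 0.17. Foxd3 itself, whose groups overlapped in 2i, gave 0.97 by the same test (adjusted p = 0.0075). After median-of-ratios scaling Nodal, Tgif1 and Pcsk6 kept their calls (adjusted p = 0.0034, 0.00995 and 0.0216), and Tdgf1, Ski and Furin did not (0.135, 0.0781 and 0.119).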

How the results depend on the processing

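Nodal in 2i and in the difference between media kept direction and call in all 12 and 15 alternatives. Counts of calls moved more. In SL (1 gene higher, 0 lower, 0 members and 0 pathway genes passed), 1 fit of all 12 libraries gave 158 higher and 14 lower, and the authors' p-values 88 and 19. Leaving out 1 library gave 1 to 229 higher, 0 to 84 lower, 0 to 1 members and 0 to 3 pathway genes, the highest without SL deleted replicate 2, and 58 higher and 16 lower without SL deleted replicate 1 or 9 and 3 without SL floxed replicate 2. In 2i (5573 higher, 2291 lower, 3 members, 22 pathway genes), scaling gave 3509 higher, 3921 lower and 1 member, 1 fit of all 12 libraries 1411 lower and 1 member, and the authors' p-values 3980 lower. In overexpression (119 higher, 197 lower, 1 member, 3 pathway genes), no filter gave 0 higher, 0 lower, 0 members and 0 pathway genes. There 1 fit of all 12 libraries gave 806 higher, 921 lower, 2 members (Lefty1 and Lefty2) and 7 pathway genes, no mean-variance trend 0 members, and the authors' p-values 392 higher and 517 lower. Leaving out 1 library gave 6 to 116 higher, 36 to 226 lower, 0 to 1 members and 0 to 2 pathway genes, the lowest without WT replicate 1, and 19 higher and 71 lower without WT replicate 2 or 41 and 103 without tetON Foxd3 replicate 1. For the difference between media (2294 higher, 693 lower, 2 members, 6 pathway genes), no filter gave 1 member and 3 pathway genes, scaling 1226 higher, 1452 lower and 1 member, and 1 fit of all 12 libraries and no trend 1 member each. Leaving out 1 library gave 494 to 2773 higher, 189 to 988 lower, 1 to 2 members and 3 to 8 pathway genes, the fewest calls without 2i labelled deleted replicate 2 and the most without SL floxed replicate 1. The cause was not tested.

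With the replicate number as a block, SL gave 1171 higher, 826 lower, 3 members (Lefty1, Lefty2 and Tdgf1) and 13 pathway genes, overexpression 1229 higher, 1244 lower, 3 members (Skil, Lefty1 and Lefty2) and 8 pathway genes, and the difference between media 3928 higher, 1414 lower and 16 pathway genes. Same-numbered libraries deviated together in SL (r = 0.60 over 12024 genes) and overexpression (0.60 over 11972), and not in 2i (-0.05 over 11637). The labels state no pairing, so the numbers are only shared.

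Some differences that had not passed changed sign. Scaling turned Acvr2b in 2i to -0.19 (authors' fold -0.34 on the log2 scale), Nodal in overexpression to -0.018, and Lefty2 and Acvr2b between media to -0.011 and -0.084. Leaving out 1 library gave ranges across 0 in SL for Skil (-0.56 to 0.16) and Acvr2b (-0.28 to 0.071). It did so in 2i for Lefty1 (-0.52 to 0.062), Lefty2 (-0.21 to 0.068) and Acvr2b (-0.075 to 0.079), and in overexpression for Nodal (-0.12 to 0.14) and Tdgf1 (-0.43 to 0.80). Between media it did so for Lefty1 (-0.10 to 1.01) and Acvr2b (-0.069 to 0.28). A fit without 1 library assumes that the lone library varies like the other group. Without SL deleted replicate 2 the standard error of Lefty1 was 0.20, although its SL floxed libraries differed by 1.11. Calls from such fits therefore need not measure a gene's own spread. The depth behind an FPKM is not known, so no counting interval is given.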
